A study of Zea mays with 21 samples.

Results

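The transcripts described here were 248 of the 6098 lncRNAs measured in maize root tips under waterlogging, chosen because they were listed at 0 TPM in every library collected up to 6 h and above 0 TPM at 8, 10 or 12 h, or at several of these times. A limit of 300 transcripts was set on the choice and was not reached. The values that chose them are the TPM themselves, so the absence up to 6 h and the presence afterwards are a description of the choice and carry no test. TPM is a transcript's share of the RNA in a library, scaled for its length.

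Seedlings of the maize inbred line B73 at the second leaf stage were kept under a layer of water above the substrate. Tips of the primary roots were collected every 2 h up to 12 h of waterlogging (named WS_2h to WS_12h by the hours elapsed) and before it (WS_0h), with 3 libraries at each of 7 time points. Each library pooled 10 root tips, and all 21 libraries came from the same genotype. Unstressed seedlings were sampled only at WS_0h, and treatment began at one hour of the day, so the length of the stress cannot be told apart from the time of day. In such bulk samples, fewer cells of a type and less RNA per cell cannot be told apart either. Whether the tissue carried root markers was not checked, because the gene names used here do not pair with the identifiers of the expression values.

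Waterlogging cuts off the oxygen supply of root cells, which then depend on fermentation for energy. Long non-coding RNAs (lncRNAs) are transcripts without a recognisable protein-coding frame. Some act on chromatin, on the transcription of neighbouring genes or as decoys for microRNAs, while for most no role is known. The 248 transcripts are named only by assembly identifiers, and no function, sequence or position of any of them was used here.

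Listing was decided by whole time points. In the lncRNA values, 14068 combinations of a transcript and a time point were at 0 in all 3 libraries, and 0 combinations were at 0 in only 1 or 2 of them. Among PCgenes (protein-coding genes) the same counts were 213 and 946. The authors describe a last filter that took out isoforms at 0 or averaging below 0.5 TPM within a condition. The listed lncRNAs still had time point means down to 0.0467 TPM, at WS_8h, and 52 were at 0 in all 21 libraries. Whether a listed 0 was measured or set by some filtering step was not tested. A listed 0 is therefore given as such and no fold change against it was calculated.

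Most of the 248 lncRNAs were listed at a single late time point. There were 181 of these, while 53 (21.4%) were listed at 2 late time points and 14 (5.65%) at all 3. WS_8h alone held 36 lncRNAs, WS_10h alone 81 and WS_12h alone 64. WS_10h and WS_12h were shared by 35, WS_8h and WS_10h by 11, and WS_8h and WS_12h by 7. WS_8h with WS_12h but without WS_10h was thus the rarest of the 7 patterns.

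**Figure D1:**
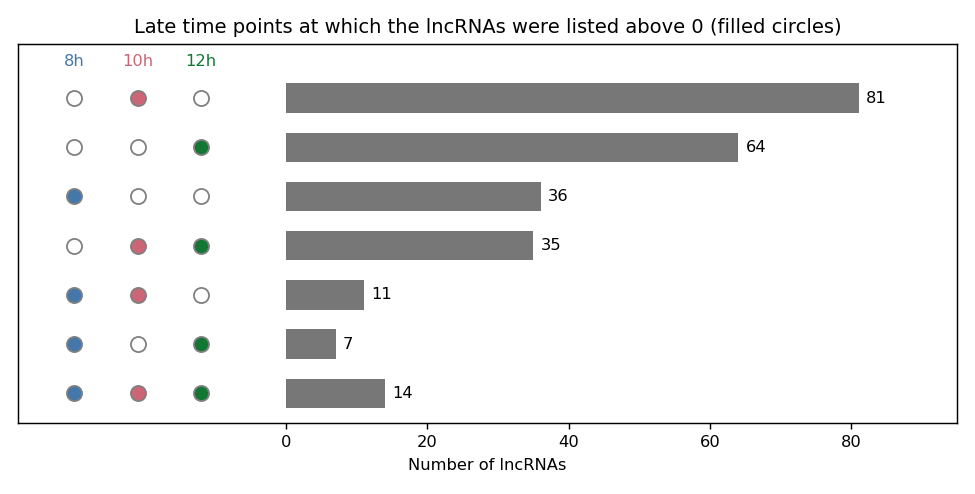
Number of lncRNAs (horizontal axis) for each combination of late time points, with filled circles marking the time points at which a transcript was listed above 0. The longest bar is WS_10h alone with 81 lncRNAs and the shortest is WS_8h with WS_12h, with 7.

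The late lncRNAs made up 68 of the 3643 lncRNAs listed at WS_8h (1.87%), 141 of the 4225 listed at WS_10h (3.34%) and 120 of the 3721 listed at WS_12h (3.22%). Listing at 1 time point only was not particular to the late times, since 159 lncRNAs were listed only at WS_0h, 79 only at WS_2h, 223 only at WS_4h and 61 only at WS_6h. Most lncRNAs were already listed at WS_0h (4331), with 627 and 672 first listed at WS_2h and WS_4h, 168 at WS_6h, then 68, 116 and 64 at the late times in order. In the opposite direction, 1079 lncRNAs were listed at one or more of the first 4 time points and at 0 in all 9 late libraries.

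Of 23175 PCgenes, 0 were at 0 in all 12 earlier libraries. This says little about PCgenes, since the study counted a gene as expressed by its average TPM over all libraries, 98.3% of the listed PCgenes averaged more than 1 TPM that way, and only 86 of the 248 late lncRNAs (34.7%) did. All 9 late libraries lay above all 12 earlier libraries for 14 of the 248 late lncRNAs, which the choice fixes, and these 14 were 0.23% of all lncRNAs. The same separation was found in 42 PCgenes, 0.181% of that table.

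The 7 PCgenes of hypoxia metabolism that the study names all had a higher mean at WS_2h than at WS_0h, before any late lncRNA was listed. Pyruvate decarboxylase1 (Zm00001d010588), which feeds pyruvate into ethanol fermentation, averaged 0.293 ± 0.0473 TPM at WS_0h, 70.5 ± 40.5 TPM at WS_2h, 648 ± 193 TPM at WS_4h, 732 ± 57.1 TPM at WS_6h, 243 ± 26.1 TPM at WS_8h, 733 ± 61.8 TPM at WS_10h and 843 ± 26.7 TPM at WS_12h (SD, n = 3 each). It was lower at WS_8h than at the time points on either side, in values given with no test. For all 7 of them, every late library lay above every WS_0h library. The morning clock gene CCA1 (Zm00001d049543) ranged between 3.71 and 6.82 TPM in the 9 late libraries, against 7.19 to 25.4 TPM in the 12 earlier ones. Its partner LHY (Zm00001d024546) ranged between 1.96 and 7.46 TPM in the late libraries, against 5.43 to 20.86 TPM in the earlier ones, and these groups overlapped. CCA1 was thus lower in every late library than in any earlier one, across the same boundary that defines the late lncRNAs. It was 1 of 41 PCgenes with that separation, 0.177% of all listed PCgenes. The part of time of day in the listing was not tested.

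The late libraries differed widely in the level of a typical lncRNA, called the library level below. A factor for each library, the median ratio over 2164 lncRNAs that were never listed at 0 (0 of them late lncRNAs), was 0.0906, 0.613 and 1.50 at WS_8h, 1.62, 1.35 and 1.51 at WS_10h, and 0.196, 1.42 and 0.324 at WS_12h, for replicates 1 to 3. The 3 libraries of WS_10h were close to each other, while those of WS_8h and WS_12h were not. Earlier libraries differed too, as WS_6h replicate 2 had 0.128 beside 1.52 and 1.59 in replicates 1 and 3. These factors are not totals, since the summed lncRNA TPM differed less, with 337609, 526373 and 795193 in the WS_8h replicates. The summed PCgene TPM there was 534645, 608739 and 625827. Factors at WS_4h were 2.86, 3.42 and 3.32. Values "as listed" below are the deposited TPM, and "rescaled" values are TPM divided by this factor.

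The late lncRNAs moved with those factors. Their median log2 ratio to the geometric mean of the time point was -1.73, 0.20 and 1.61 in the WS_8h replicates, against -2.17, 0.48 and 1.77 for the other lncRNAs listed there. At WS_12h it was -0.93, 1.40 and -0.30, against -1.14, 1.68 and -0.44 for the others. At WS_10h it stayed between -0.02 and 0.17. Replicate 3 was the highest WS_8h library for 55 of 68 late lncRNAs (80.9%, against 88.6% of the others), and replicate 2 was the highest WS_12h library for 101 of 120 (84.2%, against 94.8%).

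The late lncRNAs followed the library level less closely than the other lncRNAs did. WS_8h replicate 1 had a factor 0.0603 times that of replicate 3, which is -4.05 on the log2 scale, and the late lncRNAs had a median log2 ratio of -3.15 between the same libraries, against -3.95 for the others. WS_12h replicate 1 had a factor 0.138 times that of replicate 2, -2.86 on the log2 scale, and the medians were -2.35 for the late lncRNAs and -2.81 for the others. These gaps are descriptions, with no test, because the late lncRNAs were chosen on the same values. The factor was also taken from 2164 lncRNAs that all belong to the others, so the others lie near it by construction.

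**Figure D2:**
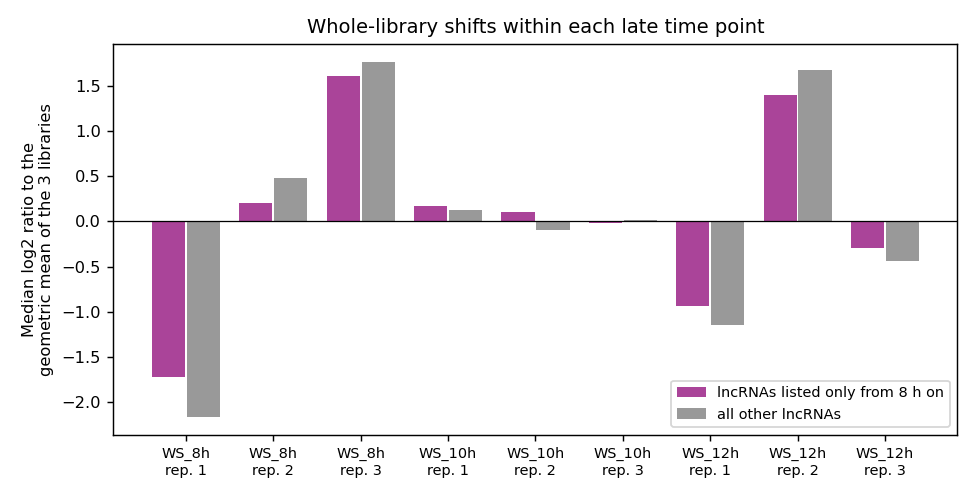
Median log2 ratio of each late library to the geometric mean of its time point (vertical axis) for the lncRNAs listed only from 8 h on and for all other lncRNAs listed at that time. WS_8h replicate 1 lay lowest at -1.73 and -2.17, WS_8h replicate 3 highest at 1.61 and 1.77, and the WS_10h libraries close to 0.

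A few transcripts held most of the level. Over the 9 late libraries the mean TPM of the 248 lncRNAs ran from 0.0533 to 1186 with a median of 1.07, against a median of 2.31 for the 4719 other lncRNAs listed late. The highest transcript held 20.2% of the summed means and the 10 highest held 60.1%. There were 16 lncRNAs above 100 TPM, 54 above 10 TPM and 122 below 1 TPM. A transcript listed at 1 late time point has 6 libraries at 0 in this mean, which lowers it.

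Within the time points where they were listed, the late lncRNAs also had lower medians than the others, given with no test. Their median of the mean TPM was 1.83 against 2.97 at WS_8h, 2.92 against 5.12 at WS_10h, and 2.06 against 2.56 at WS_12h. Single libraries weighed heavily on these medians, which were 0.813 against 1.36 without WS_8h replicate 3 and 0.828 against 1.01 without WS_12h replicate 2. On rescaled TPM they were 2.48 against 4.14 at WS_8h, 1.99 against 3.43 at WS_10h and 3.25 against 3.97 at WS_12h, so that WS_10h had the lowest median of the late lncRNAs after rescaling and the highest as listed. Levels above 10 TPM were reached by 16 late lncRNAs at WS_8h (23.5%, against 28.6% of the others), by 46 at WS_10h (32.6%, against 37.3%) and by 32 at WS_12h (26.7%, against 27.2%). At WS_10h, 23 of 141 (16.3%) were above 100 TPM, against 11.8% of the others. Their share of the summed lncRNA TPM was between 0.227% and 0.517% in the WS_8h libraries, between 1.09% and 1.50% in the WS_10h libraries and between 0.345% and 0.914% in the WS_12h libraries. These sums include TCONS_00177501 and 23 other lncRNAs, described below, whose values do not vary as a share of RNA. Their part in the differing shares was not tested.

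**Figure D3:**
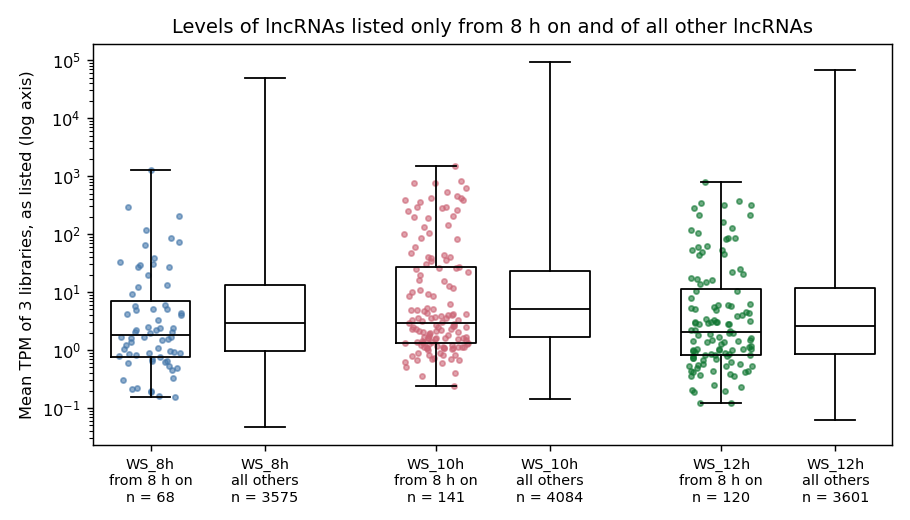
Mean TPM of 3 libraries as listed (vertical log axis) for lncRNAs listed only from 8 h on (points and left box of each pair) and for all other lncRNAs (right box) at WS_8h, WS_10h and WS_12h. Boxes span the quartiles with the median as a line and whiskers reach the lowest and highest values, and the medians are 1.83 against 2.97, 2.92 against 5.12 and 2.06 against 2.56 TPM.

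The spread between the replicates of a time point was ordered differently on the listed and rescaled scales. As listed, the median ratio of the highest to the lowest library was 9.68 at WS_8h, 3.24 at WS_10h and 7.22 at WS_12h for the late lncRNAs, against 15.9, 2.05 and 7.97 for the others, so it was below that of the others at WS_8h and WS_12h. After rescaling it was above that of the others at all 3 times. The rescaled median ratio was 3.33 at WS_8h, 3.28 at WS_10h and 3.14 at WS_12h, against 2.18, 2.00 and 2.17 for the other lncRNAs. A ratio above 4 was found for 42.6%, 41.1% and 35% of the late lncRNAs at these times, against 19.6%, 15.9% and 19.4% of the others. Low levels add to such ratios, and their part was not tested. The factors were taken from lncRNAs among the others and from none of the late lncRNAs, which favours a narrower rescaled spread in the others. The rescaled gap is therefore not given as a trait of the late lncRNAs.

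The 14 lncRNAs listed at all 3 late time points were led by TCONS_00028999, the highest of all 248. It had 275.66, 1499.95 and 2035.17 TPM at WS_8h, 1305.5, 1526.64 and 1655.36 TPM at WS_10h, and 266.81, 1674.89 and 432.06 TPM at WS_12h. These gave means of 1270 ± 902, 1496 ± 177 and 791 ± 770 TPM (SD, n = 3 each), and the ranges of the 3 time points overlapped. The libraries where it was low were those with low factors. After rescaling its highest library was 3.78 times its lowest, against 7.63 times as listed. Rescaling also reversed the order of its WS_8h replicates, to 3043, 2446 and 1354 TPM. WS_8h replicate 1, among its lowest libraries as listed, then became the highest of all its late libraries.

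TCONS_00029063, the second highest, had 133.84, 51.2 and 424.96 TPM at WS_8h, 1221.25, 406.58 and 275.88 TPM at WS_10h, and 27.75, 692.99 and 131.59 TPM at WS_12h. Its spread within a time point was as wide as that between them, and rescaling left a 17.7-fold range. TCONS_00041717, chosen for mention after its values were seen, had 7.26, 8.47 and 20.36 TPM at WS_8h, 71, 95.77 and 13.24 TPM at WS_10h, and 16.68, 100.72 and 42.08 TPM at WS_12h. The lowest library was WS_8h replicate 1 in 9 of the 14.

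TCONS_00177501 is the single late lncRNA among 15 that the study names, and its values stood apart. It was listed at 63.29, 79.52 and 73.95 at WS_8h, 71.59, 88.21 and 85.41 at WS_10h, and 83.61, 87.02 and 72.75 at WS_12h, with means of 72.3 ± 8.25, 81.7 ± 8.90 and 81.1 ± 7.45 (SD, n = 3 each). Its highest library was 1.39 times its lowest, while the other 13 spanned 7.63-fold to 97-fold. Among the 2751 other lncRNAs listed at all 3 late times, the median ratio was 26.9 and 24 (0.872%) were below 2.

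The same steps from library to library recurred in other transcripts. Over the 9 late libraries, 23 other lncRNAs with means between 149 and 9918 TPM differed from TCONS_00177501 by a nearly constant amount, which varied by only 3.25 to 3.91 TPM. Of these 23, 20 were above 0 in all 12 earlier libraries. An equal number of TPM added or removed at such different levels is not how a share of RNA varies. The listed values of TCONS_00177501 therefore cannot be read as its level. Its differences between time points are given below as a check only. The study also measured this transcript by quantitative RT-PCR in a panel of inbred lines, before waterlogging and early in it. Its expression there was reported to correlate with a protein-coding gene of the same co-expression module, and negatively with survival. The study counts it among the up-regulated lncRNAs of that module, which it ties to the last time point. In the libraries used here it was listed at 0 up to WS_6h, and this 0 is not read as absence.

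Among the 35 lncRNAs shared by WS_10h and WS_12h, the highest were TCONS_00089126 and TCONS_00089127. Both were listed with the same values in every library, 226.6, 545.67 and 193 TPM at WS_12h and 1324.24, 440.49 and 520.73 TPM at WS_10h. Their identifiers are consecutive, and they are the only identical pair among the 248, so they count as 1 measurement. Means were 322 ± 195 TPM at WS_12h and 762 ± 489 TPM at WS_10h (SD, n = 3 each), with overlapping libraries.

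TCONS_00036992 had 125.08, 548.31 and 430.21 TPM at WS_12h and 174.84, 274.93 and 783.77 TPM at WS_10h. TCONS_00067867 had 73.2, 343.71 and 65.78 TPM at WS_12h and 174.84, 455.45 and 537.37 TPM at WS_10h. TCONS_00029185 had 34.03, 159.8 and 60.63 TPM at WS_12h and 161.5, 701.93 and 300.36 TPM at WS_10h. As listed, the libraries of WS_12h and WS_10h overlapped for TCONS_00036992 and TCONS_00067867. For TCONS_00029185 the highest WS_12h library lay just below the lowest WS_10h library. After rescaling its libraries overlapped too, with 174, 113 and 187 TPM at WS_12h and 99.6, 520 and 199 TPM at WS_10h. Replicates 1 and 3 of WS_12h also had far lower library factors than the WS_10h libraries.

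**Figure D4:**
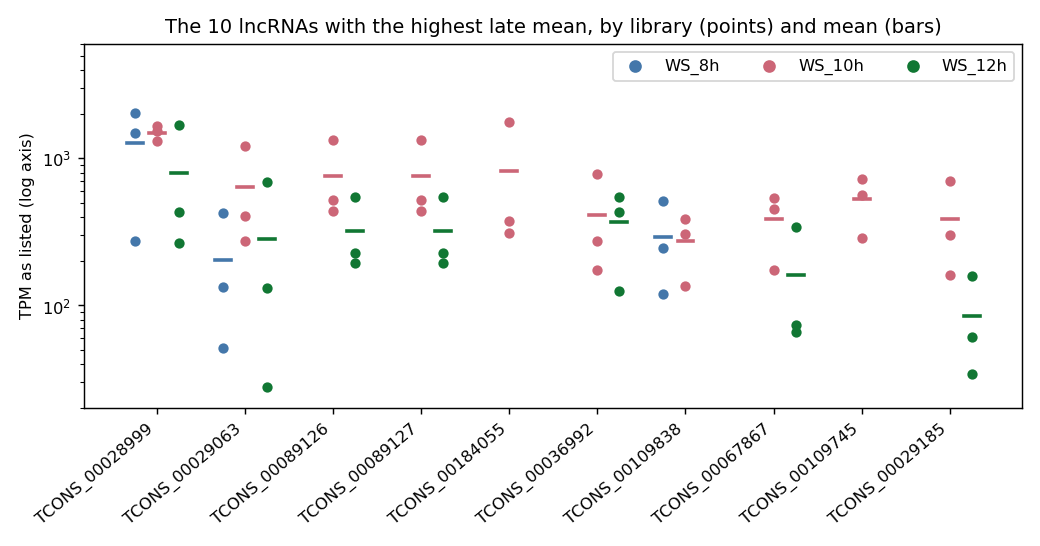
TPM as listed (vertical log axis) in each late library for the 10 lncRNAs with the highest late mean, with points for libraries, bars for the means of 3 libraries and colours for WS_8h, WS_10h and WS_12h. Time points listed at 0 are left blank, so that TCONS_00184055 and TCONS_00109745 show WS_10h alone.

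The highest lncRNA shared by WS_8h and WS_10h was TCONS_00109838, with 307.51, 135.08 and 385.92 TPM at WS_10h and 119.57, 245.97 and 517.18 TPM at WS_8h. Its means, 276 ± 128 and 294 ± 203 TPM (SD, n = 3 each), were close. The highest shared by WS_8h and WS_12h was TCONS_00142283, with 2.12, 11.71 and 3.72 TPM at WS_12h and 0.79, 2.17 and 3.76 TPM at WS_8h. That pattern held 0 lncRNAs above 10 TPM, while WS_10h with WS_12h held 12.

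Of the 81 lncRNAs listed only at WS_10h, TCONS_00184055 was the highest, with 1768.65, 309.8 and 375.12 TPM (818 ± 824 TPM, SD, n = 3). Its mean rested largely on replicate 1. TCONS_00109745 had 566.35, 727.6 and 287.85 TPM, and the group as a whole had 26 lncRNAs above 10 TPM and a median of 3.33 TPM. The libraries did not all spread in this way, as TCONS_00109709, picked after its values were seen for their closeness, had 47.13, 41.36 and 32.81 TPM.

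TCONS_00199417 led the 64 lncRNAs listed only at WS_12h, with 28.73, 159.28 and 847.22 TPM (345 ± 440 TPM, SD, n = 3). Replicate 3 was its highest library, although replicate 2 was the highest for most late lncRNAs. TCONS_00166554 led the 36 listed only at WS_8h, with 23.4, 122.45 and 205.55 TPM (117 ± 91.2 TPM, SD, n = 3), in the same order as the library factors. Medians over these groups were 2.51 TPM at WS_12h and 2.37 TPM at WS_8h.

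At the other end of the list, TCONS_00151382 was listed only at WS_8h with 0.03, 0.19 and 0.26 TPM. TCONS_00061665 had 0.1, 0.23 and 0.23 TPM and TCONS_00038775 had 0.13, 0.44 and 0.05 TPM at WS_12h alone. Such values lie close to the lowest value above 0 in the lncRNA table, 0.01 TPM, and 70 of the 248 lncRNAs had a late mean below 0.5 TPM. TPM keep no read counts, so a detection limit was not set for them.

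Differences among the late time points were not used in the choice and were tested with limma on log2(TPM + 1) of rescaled values, for lncRNAs above 0 in each of the 6 libraries compared. A transcript was called at an absolute log2 difference above 1 with a p under 0.05 after Benjamini-Hochberg adjustment. Only lncRNAs listed at both time points could enter, which were 25 of the 248 for WS_10h against WS_8h, 49 for WS_12h against WS_10h and 21 for WS_12h against WS_8h. The fold changes are on the log2(TPM + 1) scale, which understates changes at low levels.

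None of the late lncRNAs was called in any of the 3 comparisons. For WS_10h against WS_8h, 0 of 25 were called higher and 0 lower, beside 0% and 0.0316% of the 3166 lncRNAs tested. For WS_12h against WS_10h, 0 of 49 were called higher and 0 lower, beside 0% and 0% of 3287. For WS_12h against WS_8h, 0 of 21 were called higher and 0 lower, beside 0% and 0% of 2934. The test made 1 call among all lncRNAs in these comparisons, so the absence of calls was not particular to the late lncRNAs. A fit of all 21 libraries takes part of its spread from the 12 earlier ones, which the choice fixes at 0 for every late lncRNA. Its calls are therefore no evidence of a change, and their shares cannot be weighed against those of all lncRNAs. In that fit TCONS_00028999, TCONS_00098324 and TCONS_00109838 were called lower at WS_10h than at WS_8h (3 of 25, beside 0.474% of all tested). For the same comparison 0 were called higher (beside 0.379%). TCONS_00165801 and TCONS_00142283 were called higher and TCONS_00043009 lower at WS_12h than at WS_8h (2 and 1 of 21, beside 0.511% and 0.307%). For WS_12h against WS_10h, 0 were called (beside 0.0304% in each direction). Without WS_12h replicate 2, TCONS_00177501 was called higher at WS_12h than at WS_10h (1 of 49, beside 1.61% of all tested, with 0 lower beside 0.122%), and its values cannot be read as levels.

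At an unadjusted p under 0.05, WS_10h against WS_8h had 2 late lncRNAs higher and 3 lower (8% and 12% of 25), beside 4.77% and 4.9% of all tested. WS_12h against WS_10h had 9 higher and 1 lower (18.4% and 2.04% of 49), beside 4.56% and 2.34%. The 9 include TCONS_00177501, whose values cannot be read as levels. As listed, the log2 differences of the 9 lay between -0.14 (TCONS_00028445) and 0.18 (TCONS_00137840), beside a median of -1.17 over all lncRNAs tested. WS_12h against WS_8h had 3 higher and 1 lower (14.3% and 4.76% of 21), beside 4.57% and 3.89%. None of these passed the adjustment.

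The direction of the differences depended on the scale. On rescaled values the median log2 difference of the late lncRNAs was -0.01 for WS_10h against WS_8h, 0.06 for WS_12h against WS_10h and 0.35 for WS_12h against WS_8h, beside medians over all lncRNAs tested of -0.01, 0.00 and 0.00. As listed, the medians were 0.72, -0.99 and 0.17, beside 1.10, -1.17 and -0.04 over all lncRNAs. As listed, 45 of 49 late lncRNAs were lower at WS_12h than at WS_10h, while 29 of 49 were higher after rescaling, and 0 were called on either scale.

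**Figure D5:**
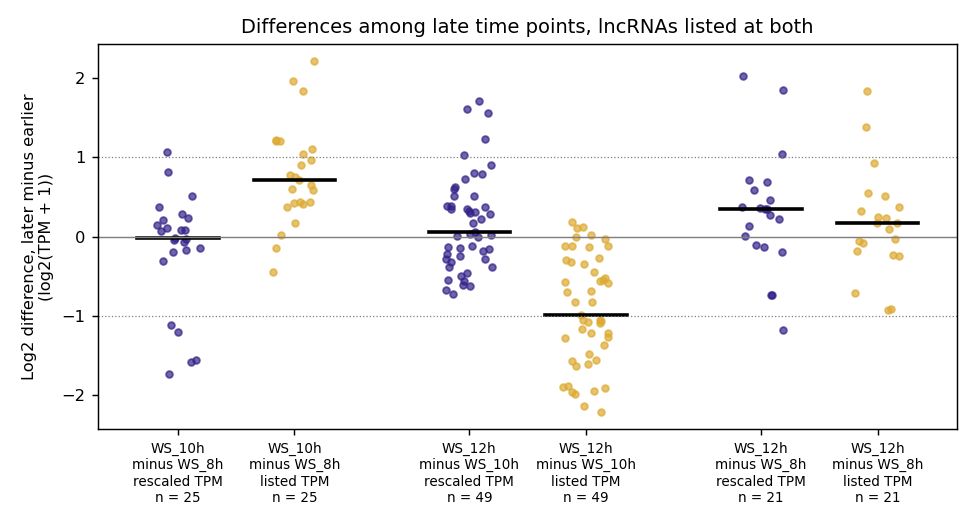
Log2 differences, later minus earlier, in log2(TPM + 1) (vertical axis) of late lncRNAs listed at both time points, on rescaled and on listed TPM, with each point a lncRNA, a bar at the median and dotted lines at the threshold of 1. For WS_12h minus WS_10h the median was 0.06 on rescaled and -0.99 on listed TPM.

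The differences of the leading transcripts did not pass the adjustment over all lncRNAs tested. TCONS_00028999 had a log2 difference of -1.11 (SE 0.36, adjusted p = 0.343 by limma with Benjamini-Hochberg adjustment) for WS_10h against WS_8h, and TCONS_00109838 had -1.74 (SE 0.56, adjusted p = 0.343). As listed, the same differences were 0.66 and 0.02, so their direction turned with the rescaling. For WS_12h against WS_10h, TCONS_00036992 had 1.61 (SE 0.61, adjusted p = 0.644) on rescaled and -0.12 on listed TPM.

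For WS_12h against WS_8h the widest difference was that of TCONS_00165801, named after its values were seen, with 3.08, 10.38 and 4.71 TPM at WS_12h and 0.09, 4.11 and 1.64 TPM at WS_8h. Its log2 difference was 2.03 (SE 0.57, adjusted p = 0.348 by limma) on rescaled and 1.39 on listed TPM. TCONS_00041717 came next with 1.85 (SE 0.65, adjusted p = 0.473), and had 1.85 as listed too. TCONS_00177501, whose listed values hardly varied, had 1.71 for WS_12h against WS_10h on rescaled and -0.01 on listed TPM, so its rescaled difference came from the library factors.

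The time point of the highest mean also moved with the scale. Among the 67 lncRNAs listed at 2 or 3 late time points, the highest mean was at WS_8h for 7, at WS_10h for 51 and at WS_12h for 9 as listed. After rescaling these were 14, 23 and 30. The WS_10h libraries had factors of 1.35 or more, which lower their rescaled values.

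Identifiers next to each other were compared because merged assemblies number transcripts in order, although the values carry no positions and whether neighbours share a locus is not known here. Of the 248 lncRNAs, 169 (68.1%) had a listed lncRNA 1 number away, against 66.8% of the others. For 158 of these 169 (93.5%) that neighbour was already listed above 0 at one or more of the first 4 time points, against 95.5% of such neighbours of the others. Where identifiers on both sides were equally near, the lower one was taken, here and for the neighbours above. Under that rule the nearest identifier was itself a late lncRNA for 10 (4.03%), beside 4.03% of the others. Without it, 12 late lncRNAs had another late lncRNA 1 number away, a count not made for the others. These shares were close to those of the other lncRNAs, and 95.1% of all lncRNAs were listed at one of the first 4 time points.

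The neighbour of TCONS_00028999, TCONS_00029000, averaged 3.91, 1.59, 3.07, 3.39, 0, 1.92 and 2.17 TPM at the 7 time points in order. It was listed at 0 at WS_8h, where TCONS_00028999 was first listed. At WS_8h, 60% of the neighbours of late lncRNAs were listed at that time, against 63.4% of the neighbours of the others, and the shares were 68.0% against 70.2% at WS_10h and 61.7% against 64.3% at WS_12h.

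There were 6 pairs of late lncRNAs with consecutive identifiers. TCONS_00183593 was listed only at WS_10h with 150.05, 134.01 and 22.55 TPM, and TCONS_00183594 only at WS_12h with 37.08, 160.61 and 109.82 TPM. TCONS_00089268 was listed only at WS_12h with 1.07, 10.92 and 2.88 TPM, and TCONS_00089269 only at WS_8h with 3.56, 17.59 and 59.26 TPM. In these 2 pairs and in TCONS_00089948 with TCONS_00089949 the partners were listed at different times, and the other 3 pairs shared their times. These pairs were looked at after their values were seen.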

How the data were processed

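RNA of B73 root tips was sequenced in 21 libraries, 3 at each of 7 time points. Both kinds of values are TPM, deposited by the authors. PCgene TPM came from HISAT2 2.0.5 alignments to B73 RefGen_v4 counted with featureCounts, and lncRNA TPM from RSEM over a merged Cufflinks assembly, which the authors then filtered for coding potential and for isoforms absent or scarce within a condition. TPM keep no read counts, so the precision given is the spread of the 3 replicate libraries. Libraries were grouped by their labels and none was left out.

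The transcripts, lists and tests were chosen with earlier results of these data known. Pairwise limma 3.58.1 fits (R 4.3.3, mean-variance trend, no replicate block) used log2(TPM + 1) after division by a median-ratio factor, on the 6 libraries of each comparison, with adjustment over all lncRNAs tested. Fits were tested on simulated data. Alternatives were listed TPM, a pseudocount of 0.1, a mean above 1 TPM, all 21 libraries in 1 fit, a replicate block and leaving out each library. The rule for naming lncRNAs took the 10 highest by late mean, the highest of each pattern, the 3 lowest and those the study names. It also took those with identical or aberrant values and the 3 largest called in each direction per comparison, and the main fits called none. Other lncRNAs were named after their values were seen, as neighbours by identifier, or for calls in an alternative fit. Other steps used Python 3.11.15, numpy 2.4.6, pandas 2.3.3 and matplotlib 3.10.9. Sequences and positions were not used here.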

Additional observations from a re-analysis of the deposited data

How the results depend on the processing

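Of 93 recomputed values, 7 moved by more than the limit, which was 1.5 times for counts and, for a median level, the SD of the medians of the 3 libraries. Of the 93, 72 were counts of called late lncRNAs that were 0 in the main fits, where any call counted as moved. The main fits made 1 call among all lncRNAs, so a count staying at 0 says little about stability. With all 21 libraries in 1 fit, 3 late lncRNAs were called lower for WS_10h against WS_8h (TCONS_00028999, TCONS_00098324 and TCONS_00109838, beside 0.474% of all tested), and for WS_12h against WS_8h 2 were called higher (TCONS_00165801 and TCONS_00142283, beside 0.511%) and 1 lower (TCONS_00043009, beside 0.307%), where the pairwise fits called 0. That fit takes its spread partly from the earlier time points, at which the choice fixes these transcripts at 0. Its calls are therefore no evidence of a change. Leaving out each library in turn, the count called higher for WS_12h against WS_10h ran from 0 to 1, the 1 being TCONS_00177501 without WS_12h replicate 2 (adjusted p = 0.00727 by limma), whose values cannot be read as levels. In that fit 53 of all 3287 lncRNAs were called higher and 4 lower, against 0 and 0 with all 6 libraries. The median level at WS_10h, 2.92 TPM, was 1.99 on rescaled values, 2.61 with the median of the 3 libraries and 2.57 without replicate 2. The SD limit was wide at the other times (1.70 TPM at WS_8h and 1.58 TPM at WS_12h), and within it the median level at WS_8h, 1.83 TPM, was 0.813 without replicate 3, and that at WS_12h, 2.06 TPM, was 0.828 without replicate 2 and 3.25 on rescaled values. With the median of the 3 libraries they were 1.14 and 1.13 TPM. With the replicate block, 0 late lncRNAs were called in either direction in the 3 comparisons, and same-numbered libraries correlated between -0.221 and 0.197 in their deviations, so the numbers were not taken to pair the libraries. The differing library levels limit every comparison among late time points.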

Other observations

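Some late lncRNAs shared single values. TCONS_00036992 and TCONS_00067867 were both listed at 174.84 TPM in WS_10h replicate 1 and differed in every other library where they were above 0. In the same library, 248 of 1571 other lncRNAs at 10 TPM or more (15.8%) had a value equal to that of another transcript.

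Single libraries far above the rest of their time point, noticed after the values were seen, included TCONS_00028426 with 0.23, 3.52 and 75.79 TPM at WS_8h, TCONS_00183630 with 2.18, 259.75 and 33.88 TPM at WS_10h, and TCONS_00067823 with 19.06, 25.36 and 598.32 TPM at WS_12h. TCONS_00198546 ran against the library levels at WS_12h, with 5.19, 3.57 and 0.76 TPM, where replicate 2 had the highest factor.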
